A study of Mus musculus with 16 samples.

Results

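The comparison set out here is between the cortex of tau mice that had lost 1 of their 2 Trem2 alleles and the cortex of tau mice that kept both. The mice with 1 allele were labelled P301S+ TREM2+/- and are called heterozygotes below, and those with both were labelled P301S+ TREM2+/+. All 8 carried the P301S tau transgene, were 8 to 9 months old and came from a strain labelled C57BL/6; C3, and each genotype had 2 females and 2 males. The comparison took 8 of the 16 libraries of the series and, of 24060 genes listed, the 12027 with a mean of at least 1 RPKM over these 8 libraries. RPKM is a read count scaled by the length of the gene and by 1e+06 reads of the library. The gene just above that limit was F13a1 and the gene just below it Heph. The other 8 libraries, 4 knockouts (P301S+ TREM2-/-) and 4 controls without the transgene (TREM2+/+), are used only where a value has to be placed. The labels give the tissue as cortical brain tissue and do not say whether animals were pooled or prepared together, so p-values measure the spread between these samples. They name neither the promoter of the transgene nor the part of Trem2 that was removed. The libraries were made from total RNA with a kit that reads the 3' end of each transcript. The level of a single gene was therefore set against levels of that gene in other libraries. Ratios of Trem2 to other genes and summed RPKM of lists join different genes, and their size depends on the scaling by gene length. These too were compared only between libraries.

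Trem2 is a lipid-sensing receptor on microglia, the resident macrophages of the brain. It has no signalling tail of its own and passes its signal through the adapters Tyrobp and Hcst to kinases of the Syk and PI3 kinase pathways, and it is cut from the cell surface by the sheddases Adam10 and Adam17. In mouse models of neurodegeneration it is needed for the full switch of microglia from a homeostatic state, marked by genes such as P2ry12 and Tmem119, to a disease-associated state, marked by genes such as Cst7, Clec7a and Itgax.

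The heterozygote libraries held 10.5, 9.70, 6.42 and 10.6 M reads (M, 1e+06) and the P301S+ TREM2+/+ libraries 6.95, 7.32, 5.08 and 12.7 M, in both groups the females first and then the males, an order kept for every list of 4 values below. Depth did not separate the groups (two-sided exact permutation p = 0.514). Both P301S+ TREM2+/+ females stood apart from the other 6 libraries on the first principal component, at -41.5 and -36.9 against -3.5 to 22.6, and that component held 42.1% of the variance. Their small nucleolar RNA reads (24.7 and 27.4 per 1e+06) lay inside the range of the other 6 libraries (19.8 to 43.1), as did their share of reads in the 50 most abundant genes in 1 of the 2. The second component (18.4%) set apart heterozygote replicate 1, a female, at 28.6 against -19.3 to 11, and the third component (12.6%) set apart heterozygote replicate 3, a male, at -29.3 against -7.6 to 18.7. Xist, the RNA of the inactive X chromosome, was at 3.94 and 4.33 RPKM in the heterozygote females and 5.19 and 3.61 RPKM in the P301S+ TREM2+/+ females, while the males had 0.4 and 0.0211 RPKM in heterozygotes and 0.0879 and 0.0176 RPKM in P301S+ TREM2+/+ mice. The Y-linked Ddx3y was near 0 in the 4 females and at 22.4 and 22.6 RPKM in heterozygote males and 20.4 and 19.8 RPKM in P301S+ TREM2+/+ males, so each library matched its labelled sex, and among males Xist was highest in heterozygote replicate 3. Medians of many lists moved when heterozygote replicate 1 or 3 was left out. For some of these lists, not all, the median without that library is given beside the list.

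**Figure D1:**
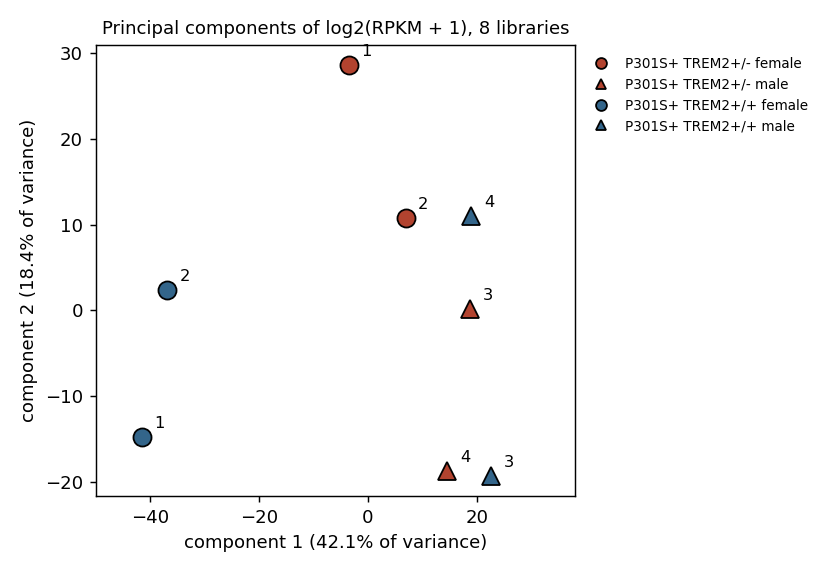
First 2 principal components of log2(RPKM + 1) over the 12027 tested genes for the 4 heterozygotes (red) and 4 P301S+ TREM2+/+ mice (blue); circles are females, triangles males, and the digit is the replicate. The 2 P301S+ TREM2+/+ females lie at -41.5 and -36.9 on component 1, and the other 6 libraries between -3.5 and 22.6.

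Trem2 itself (chromosome 17, 48346401 to 48354147, plus strand, GRCm38) was lowest in the 2 heterozygote females, and its level in the heterozygote males lay closer to that of P301S+ TREM2+/+ mice. It was at 4.5, 8.37, 25.2 and 13.6 RPKM in heterozygotes, against 34, 30.2, 29.6 and 14.3 RPKM in P301S+ TREM2+/+ mice. Both heterozygote females lay below every P301S+ TREM2+/+ library, while the heterozygote male at 25.2 RPKM lay above the P301S+ TREM2+/+ male at 14.3 RPKM, so the groups overlapped. The group means were 12.9 ± 8.98 RPKM in heterozygotes and 27 ± 8.69 RPKM in P301S+ TREM2+/+ mice (SD, n = 4 each). On the log2(RPKM + 1) scale, on which all differences below are given and which understates changes of low genes, the difference between heterozygotes and P301S+ TREM2+/+ mice was -1.17 (SE 0.44, 95% interval -2.16 to -0.19, unadjusted p = 0.0244 in limma). It did not pass adjustment over all genes (limma with Benjamini-Hochberg adjustment, adjusted p = 0.544), and the exact permutation test over the 8 libraries gave p = 0.057. In females alone it was -2.2 (SE 0.26, limma adjusted p = 0.0201), and in males alone -0.15 (SE 0.41, 95% interval -1.16 to 0.87). The female value compares 2 mice with 2 and includes the P301S+ TREM2+/+ females that stood apart on the first principal component. In that fit 450 genes (3.74%) passed the limma threshold. The male value includes the P301S+ TREM2+/+ male at 14.3 RPKM, which stood far from the rest of its group (29.6 to 34 RPKM). The difference between the sexes was 2.06 (limma interaction, adjusted p = 0.111) and did not pass. For placement, Trem2 averaged 2.09 ± 1.12 RPKM in the knockouts and 12.4 ± 5.53 RPKM in the controls (SD, n = 4 each).

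Tyrobp, the adapter that carries the Trem2 signal into the cell, is made by microglia as Trem2 is. It was at 24.1, 46.3, 118 and 107 RPKM in heterozygotes, against 117, 83.7, 83.5 and 49.8 RPKM in P301S+ TREM2+/+ mice. The 2 heterozygote females were the lowest of the 8 and the groups overlapped (difference -0.37, SE 0.45, limma adjusted p = 0.799). The ratio of Trem2 to Tyrobp RPKM was 0.187, 0.181, 0.213 and 0.128 in heterozygotes, against 0.291, 0.360, 0.354 and 0.288 in P301S+ TREM2+/+ mice. All 4 heterozygotes lay below all 4 P301S+ TREM2+/+ libraries, and the mean ratio was 0.548 times as high (two-sided exact permutation p = 0.029, the smallest that 70 splits allow; 0.068 after adjustment over the 7 measures compared this way). As a percent of the summed RPKM of the pan-microglia and macrophage list, Trem2 was 3.04, 2.86, 3.38 and 2.94 in heterozygotes, against 7.92, 8.57, 8.35 and 5.11 in P301S+ TREM2+/+ mice, again without overlap. The exact permutation p was 0.029, a value fixed by the lack of overlap, and 0.068 after adjustment over the 7 measures. As a percent of the summed RPKM of the homeostatic microglia list it was 0.198, 0.335, 0.687 and 0.378 in heterozygotes, against 1.58, 1.31, 0.932 and 0.422 in P301S+ TREM2+/+ mice, and here the groups overlapped (exact permutation p = 0.057; 0.08 after adjustment over the 7 measures). The homeostatic list holds genes that other cells express, such as Rhob and Mef2a, so its sum need not follow microglia. All of these ratios were chosen with the levels known. In bulk tissue, fewer microglia and less RNA per microglial cell cannot be told apart.

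**Figure D2:**
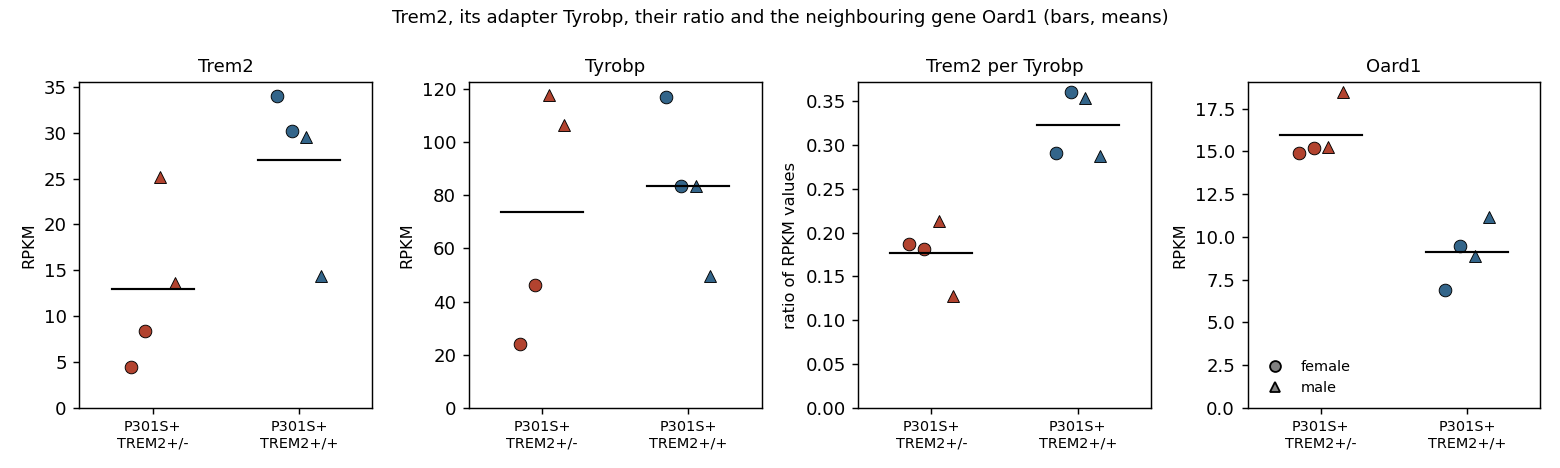
Trem2, Tyrobp and Oard1 in RPKM and the ratio of Trem2 to Tyrobp RPKM in the 4 heterozygotes (red, left) and the 4 P301S+ TREM2+/+ mice (blue, right); circles are females, triangles males, bars group means. Trem2 and Tyrobp overlap between genotypes, whereas the ratio (0.128 to 0.213 against 0.288 to 0.360) and Oard1 do not.

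Genes of the Trem2 pathway, with Trem2 and Tyrobp counted among them, showed no difference past the threshold. Of the 20 listed, 15 were tested, 8 lay above 0 (52.3% of all tested genes did) and 7 below, and the median difference was 0.05, beside 0.01 over all genes. The median was 0.10 without heterozygote replicate 1 and -0.02 without heterozygote replicate 3. Apart from Trem2 and Tyrobp the differences ran from -0.24 for Ptpn6, the phosphatase SHP-1, to 0.22 for Inpp5d, the lipid phosphatase SHIP1 that opposes PI3 kinase. Hcst, the second adapter, was at 2.37, 1.17, 6.35 and 3.21 RPKM in heterozygotes and 6.51, 2.78, 3.12 and 2.68 RPKM in P301S+ TREM2+/+ mice, with the single highest value in a P301S+ TREM2+/+ female. The PI3 kinase subunits differed by 0.13 (Pik3r1) and 0.17 (Pik3cd), the adaptors by 0.09 (Blnk), -0.08 (Lat2) and 0.06 (Grb2), and the exchange factors by -0.02 (Vav3) and 0.17 (Sos1), all on the log2 scale. The sheddases Adam10 and Adam17 differed by -0.02 and 0.19, and Cd33, an inhibitory sialic-acid receptor of microglia, by 0.05. Syk, Plcg2, Vav1, Btk and Dok3 lay below the expression limit. In 10 of the 15 genes the heterozygotes lay lower in females and higher in males, against 30.0% of all tested genes.

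Among tested genes within 1 Mb of Trem2 on chromosome 17, Oard1 was the nearest and the only one whose groups did not overlap. Oard1 (chromosome 17, 48410014 to 48417266, plus strand, GRCm38) lies 0.06 Mb from Trem2 and encodes an enzyme that removes ADP-ribose from proteins. It was at 14.9, 15.2, 15.3 and 18.5 RPKM in heterozygotes, against 6.89, 9.46, 8.85 and 11.2 RPKM in P301S+ TREM2+/+ mice. Every heterozygote was higher than every P301S+ TREM2+/+ mouse, by 0.76 on the log2 scale (0.82 in females and 0.70 in males). The SE was 0.14, with unadjusted p = 0.000355 and adjusted p = 0.544 in limma. The exact permutation p was 0.029 (0.068 after adjustment over the 7 measures). Any gene without overlap takes that value, so it adds no support. Heterozygotes lay above without overlap in 168 of the 12027 genes (1.4%). The knockouts averaged 18.9 ± 2.53 RPKM and the controls 9.32 ± 2.69 RPKM (SD, n = 4 each). The other tested genes of the neighbour list, Usp49, Bysl and Med20, start at -0.72, -0.75 and -0.73 Mb from Trem2. They differed by -0.09, -0.15 and 0.11 and overlapped between the groups. Outside that list but within 1 Mb, Taf8, a subunit of the transcription factor TFIID, differed by 0.61 (unadjusted p = 0.0535), Lrfn2 by 0.24 and Mrps10 by 0.19, each with overlap. Tomm6, a subunit of the mitochondrial import pore, differed by 0.39 (unadjusted p = 0.0305 in limma), also with overlap. These 4 genes were named after their values were seen. Lrfn2 lies on the same side of Trem2 as Oard1, and Taf8, Mrps10 and Tomm6 lie on the other side. The receptor genes Treml1, Treml2, Treml4, Trem1 and Trem3 lay below the expression limit. So did the listed neighbours Nfya, Apobec2, Unc5cl, Tspo2, Foxp4, Mdfi and Tfeb. After Oard1, the nearest tested gene was therefore Lrfn2, at 0.59 Mb.

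Across all 12027 genes, no difference between heterozygotes and P301S+ TREM2+/+ mice passed limma's test at an adjusted p of 0.05 (0%, with a lowest adjusted p of 0.132), and limma-voom on recovered reads called 0 as well. At an unadjusted p under 0.05 limma found 1100 genes (9.15%), 696 higher (5.79%) and 404 lower (3.36%) in heterozygotes. The groups did not overlap in 345 genes (2.87%), with the heterozygotes above in 168 (1.4%) and below in 177 (1.47%). The median half-width of the 95% interval was 0.36, and in 11102 genes the whole interval lay between -1 and 1. Genes with the smallest p on each side, among those without overlap, are described next as values.

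Hes1 and Sox21, which encode transcription factors, were among the genes with higher levels in heterozygotes. Hes1, a repressor induced by Notch, was at 34.5, 33.6, 39.4 and 27.8 RPKM in heterozygotes, against 14.1, 19.1, 21.2 and 25.9 RPKM in P301S+ TREM2+/+ mice. The difference was 0.74 (SE 0.17, unadjusted p = 0.00192, adjusted p = 0.544 in limma), and the narrowest gap was between 2 males. Sox21, a repressor of the Sox family, was at 5.68, 5.24, 6.08 and 5.93 RPKM in heterozygotes and 2.24, 3.06, 4.2 and 4.39 RPKM in P301S+ TREM2+/+ mice, a difference of 0.62. In each of these 2 genes the lowest level was that of a P301S+ TREM2+/+ female.

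Epb4.1l2, a band 4.1 protein that links membrane and cytoskeleton, was at 131, 135, 187 and 169 RPKM in heterozygotes, against 59.3, 69.5, 129 and 127 RPKM in P301S+ TREM2+/+ mice. Both P301S+ TREM2+/+ females lay far below the other 6 libraries, and the difference was 1.04 in females and 0.47 in males. Cidea, a lipid droplet protein, was at 4.34, 6.29, 6.16 and 6.34 RPKM in heterozygotes and 3.21, 2.93, 2.37 and 3.32 RPKM in P301S+ TREM2+/+ mice. The difference was 0.77, with 0.62 in females and 0.93 in males. Tpmt, the thiopurine methyltransferase, was at 5.45, 5.51, 6.95 and 7.04 RPKM in heterozygotes and 3.29, 3.12, 4.86 and 4.21 RPKM in P301S+ TREM2+/+ mice (difference 0.58, unadjusted p = 0.000675). The remaining genes of this side, the Wnt receptor Ryk (0.54), Lage3 (0.42), the sphingosine-1-phosphate transporter Spns2 (0.56) and the phosphatase subunit Ppp4r1 (0.66), had adjusted p of 0.544 each in limma.

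Snord16a, a small nucleolar RNA encoded inside another gene, had the smallest p of all, and rests on few reads. It was at 6.29, 4.53, 1.71 and 5.2 RPKM in heterozygotes, from 1 to 6 reads per library and 16 in all, and had no read in the 4 P301S+ TREM2+/+ libraries. Against the limit of 3 reads over that group, it was at least 4.59-fold higher in heterozygotes. Outside the comparison it had 0 to 2 reads in each knockout and 0 to 18 in each control. Its adjusted p in limma was 0.132; it passed without heterozygote replicate 3 (difference 2.65, limma adjusted p = 0.00366) and with a pseudocount of 0.1 (5.36, limma adjusted p = 0.0241). Reads of its host gene cannot be told apart from its own. Snord16a met the expression limit only through the heterozygotes, so its p-values and fold are given as values and do not count as support.

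Hpca, Ppp1ca and Ppp1r9a were among the genes with lower levels in heterozygotes. Hpca, the neuronal calcium sensor hippocalcin, was at 107, 113, 89.1 and 82.9 RPKM in heterozygotes, against 194, 219.6, 134 and 123 RPKM in P301S+ TREM2+/+ mice. The difference was -0.74 (SE 0.11, unadjusted p = 9.76e-05, limma adjusted p = 0.478), with -0.91 in females and -0.57 in males. Ppp1ca, a catalytic subunit of protein phosphatase 1, was at 134, 135, 96.6 and 125 RPKM in heterozygotes and 220.5, 229.8, 201 and 138 RPKM in P301S+ TREM2+/+ mice, a difference of -0.67. Ppp1r9a, neurabin, which brings that phosphatase to actin in dendritic spines, was at 75.9, 68, 50.5 and 65.3 RPKM in heterozygotes and 92.9, 106, 79.1 and 81.5 RPKM in P301S+ TREM2+/+ mice, a difference of -0.47. The lowest value of both Ppp1ca and Ppp1r9a was in heterozygote replicate 3.

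Hddc3, a phosphohydrolase, had a difference of -1.04 (SE 0.16, limma adjusted p = 0.478), with 9.21, 8.39, 14.9 and 15.3 RPKM in heterozygotes and 16.6, 27.8, 29.3 and 28 RPKM in P301S+ TREM2+/+ mice. Nexn, an actin-binding protein, was at 5.88, 8.21, 4.68 and 10.9 RPKM in heterozygotes and 15, 16.4, 13.7 and 16 RPKM in P301S+ TREM2+/+ mice, a difference of -1.0. The remaining genes were Fam219a (-1.16), Scrn1 (-0.67), the cAMP phosphodiesterase Pde7b (-0.67), the mitochondrial protein Rtn4ip1 (-0.59), the small GTPase Rasl10a (-0.56), the chaperone cofactor Pih1d1 (-0.53) and Fam132a (-0.49), with adjusted p of 0.544 each in limma. Because these genes were taken for the lack of overlap between the groups, their sign within each sex or with a library left out is fixed by that choice.

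**Figure D3:**
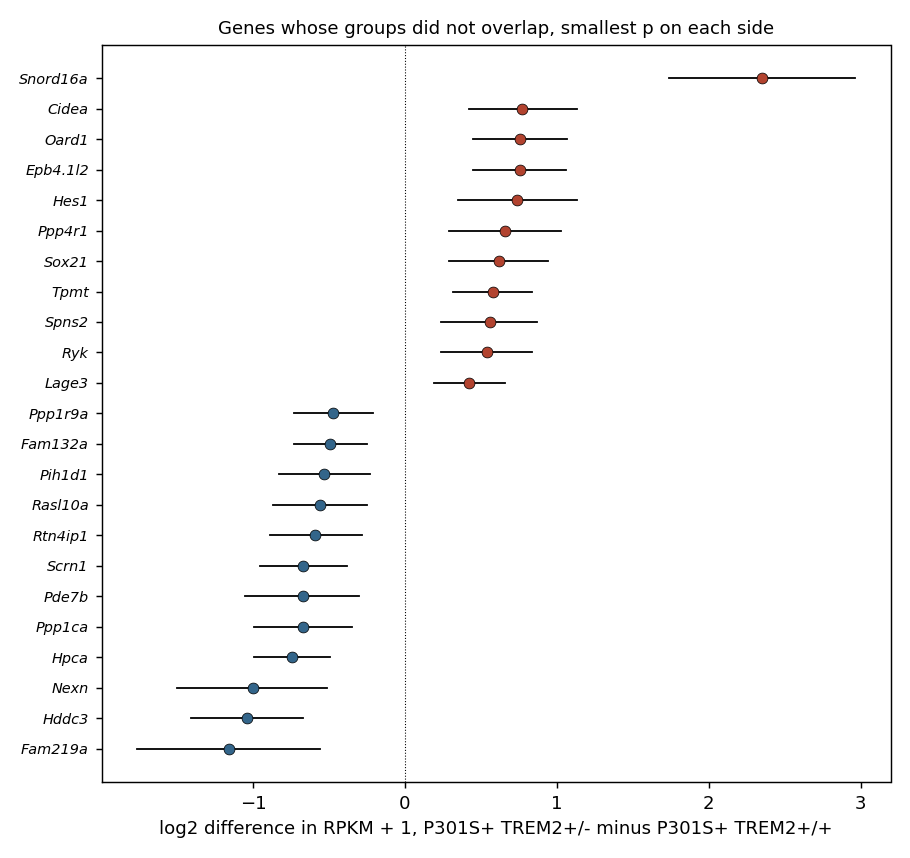
Log2 difference in RPKM + 1 between heterozygotes and P301S+ TREM2+/+ mice, with 95% limma intervals, for genes with the smallest p on each side among those whose 4 and 4 libraries did not overlap. Differences run from -1.16 (Fam219a) to 2.35 (Snord16a); none passed adjustment over 12027 genes.

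Disease-associated microglia genes lay on both sides of 0 over both sexes. Of 25 listed genes 24 were tested, 10 lay above 0 and 14 below, and the median was -0.05, beside 0.01 over all genes. Within sex, the same list had a median of -0.50 in females, where 7 genes lay above 0, and 0.52 in males, where 21 did, beside medians of -0.03 and 0.03 over all genes. The heterozygotes lay lower in females and higher in males in 15 of the 24 genes (62.5%), against 30.0% of all tested genes. Heterozygote replicate 1, a female, was the lowest of the 8 libraries in 15 of the 24 genes, against 19.5% of all genes, and heterozygote replicate 3, a male, the highest in 10, against 15.1%. The median was 0.20 without replicate 1 and -0.21 without replicate 3. In the limma test of the difference between the sexes, 134 of 12027 genes passed (1.11%), and 4 of these 24 did: Cst7, Clec7a, Ctsz and Itgax. Itgax met the expression limit only through the P301S+ TREM2+/+ mice, so its call does not count as support.

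Cst7, the protease inhibitor cystatin F, was at 0.387 and 2.72 RPKM in heterozygote females, against 16.9 and 10.9 RPKM in P301S+ TREM2+/+ females. In males the order was the other way, with 18.3 and 14.4 RPKM in heterozygotes and 7.59 and 3.44 RPKM in P301S+ TREM2+/+ mice. The difference was -2.69 in females (limma adjusted p = 0.0373) and 1.48 in males, which differed by 4.17 (SE 0.66, limma interaction, adjusted p = 0.0335). The genotypes did not overlap in either sex, and heterozygotes were the lower ones in females and the higher ones in males.

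Clec7a, the beta-glucan receptor Dectin-1, was at 0.0419 and 1.04 RPKM in heterozygote females and 5.24 and 2.16 RPKM in P301S+ TREM2+/+ females. In males it was at 10.5 and 7.39 RPKM in heterozygotes and 2.08 and 1.98 RPKM in P301S+ TREM2+/+ mice (interaction 3.31, limma adjusted p = 0.039). Its 2 highest levels among all 8 libraries were in the heterozygote males. The lysosomal protease Ctsz was at 10.1 and 17.4 RPKM in heterozygote females, 41.7 and 40.4 RPKM in P301S+ TREM2+/+ females, 39.1 and 32.4 RPKM in heterozygote males and 27.4 and 20.6 RPKM in P301S+ TREM2+/+ males (interaction 2.12, limma adjusted p = 0.0356). Itgax, the integrin CD11c, was at 0 and 0.179 RPKM in heterozygote females, 3.15 and 1.83 RPKM in P301S+ TREM2+/+ females, 1.51 and 1.36 RPKM in heterozygote males and 0.979 and 0.451 RPKM in P301S+ TREM2+/+ males (interaction 2.18, limma adjusted p = 0.0483). The direction of these 4 interactions was the same in every alternative, but they passed in 4 (Itgax) to 7 (Ctsz) of the 16 or 17 alternatives.

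Among the other members, Cd9, a tetraspanin, was at 13.1, 17.8, 40.8 and 32.8 RPKM in heterozygotes and 7.72, 7.33, 19.7 and 30.6 RPKM in P301S+ TREM2+/+ mice, a difference of 0.74 with the same sign in both sexes (unadjusted p = 0.00214, limma adjusted p = 0.544). Csf1, the growth factor of microglia, was at 3.5, 3.59, 10.6 and 6.5 RPKM in heterozygotes and 1.11, 1.08, 6.33 and 6.75 RPKM in P301S+ TREM2+/+ mice, with the 2 lowest values in the P301S+ TREM2+/+ females. The protease Ctsl differed by 0.43 and the metalloprotease inhibitor Timp2 by 0.25. Lowest relative to their error stood Lpl, lipoprotein lipase (-0.36), and Cd74, the invariant chain of class II antigen presentation (-0.55), with 0, 0.291, 1.32 and 1.54 RPKM in heterozygotes and 3.76, 0.772, 0.835 and 1.28 RPKM in P301S+ TREM2+/+ mice. Cd74 stood at -1.35 in females and 0.25 in males, a split like that of Cst7 that did not pass (limma interaction, adjusted p = 0.209). Cd74 averaged 0.788 RPKM in heterozygotes and 1.66 RPKM in P301S+ TREM2+/+ mice, so it met the expression limit only through the latter.

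**Figure D4:**
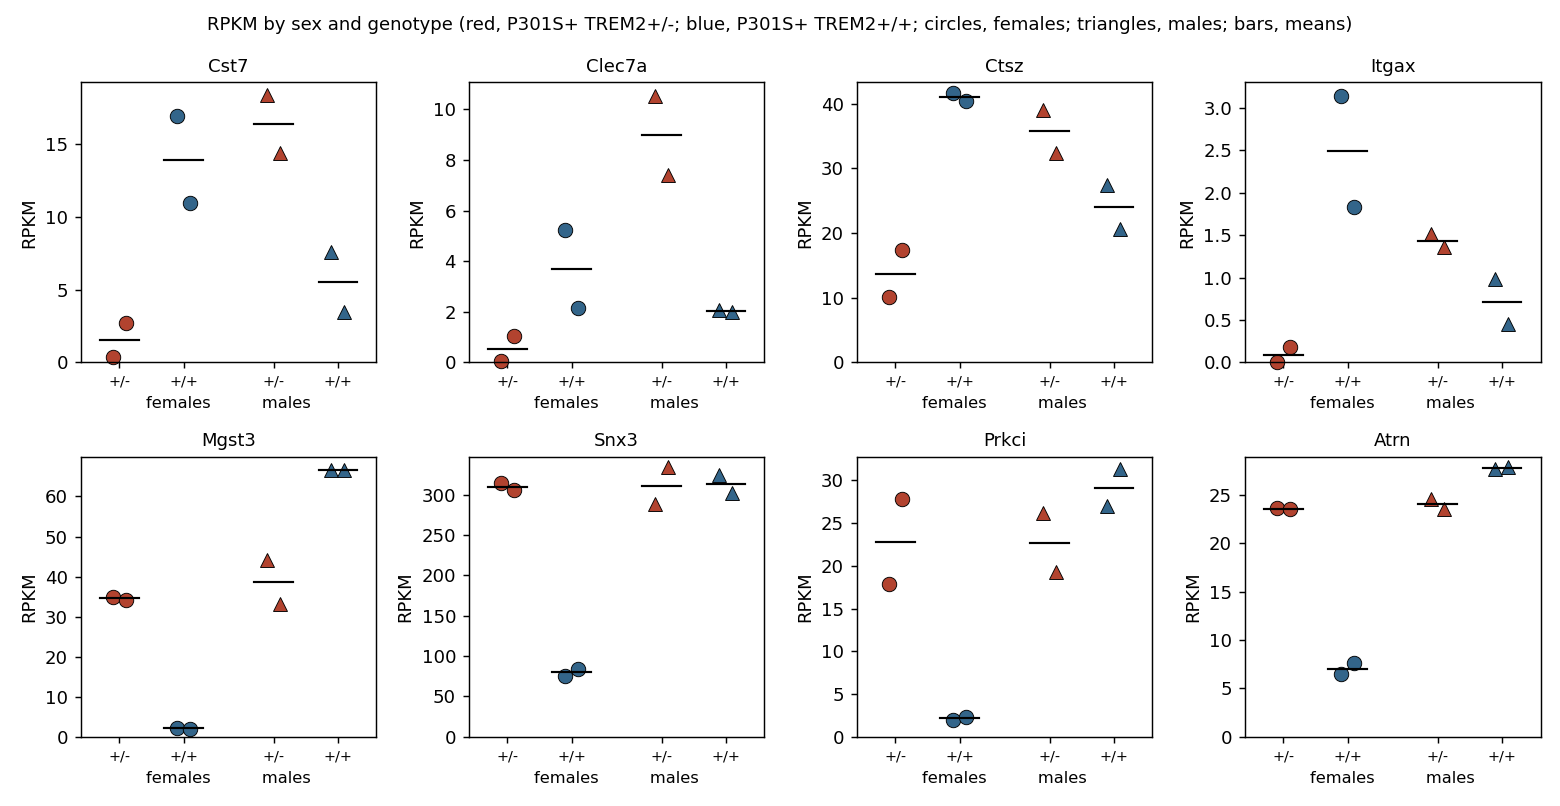
RPKM by sex and genotype for the 4 disease-associated microglia genes that passed the limma interaction test (top) and 4 of the genes with the smallest interaction p in the other direction (bottom); heterozygotes (+/-, red) stand left of P301S+ TREM2+/+ mice (+/+, blue), and bars are means of 2 mice. In the top row heterozygotes are lower in females and higher in males; in the bottom row the P301S+ TREM2+/+ females alone are low.

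In homeostatic microglia genes, heterozygotes lay lower in females and higher in males in 10 of 18. Of these 18 homeostatic genes tested, 14 lay above 0, with a median of 0.12 (-0.32 in females and 0.34 in males; 0.25 without heterozygote replicate 1 and 0.01 without heterozygote replicate 3). Those libraries were the lowest of the 8 in 9 genes and the highest in 10. Rhob, a small GTPase that many cell types express, was at 184, 145, 151 and 134 RPKM in heterozygotes and 79.1, 91.9, 97.3 and 129.5 RPKM in P301S+ TREM2+/+ mice and did not overlap, with a difference of 0.64 (unadjusted p = 0.00376, limma adjusted p = 0.544). The receptors Gpr34 and P2ry12 and the transcription factor Mef2a, which neurons also express, differed by 0.53, 0.21 and 0.13. P2ry12 was at 13.1, 16.5, 27.7 and 17.8 RPKM in heterozygotes and 13, 14.7, 16.2 and 18.7 RPKM in P301S+ TREM2+/+ mice. The lowest members were the fructose transporter Slc2a5 (-0.23), Tmem119 (-0.24), Olfml3 (-0.12) and the receptor P2ry13 (0.00).

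Of 19 pan-microglia and macrophage genes tested, 12 lay above 0 (median 0.14), with 3 above 0 in females (median -0.52) and 19 above 0 in males (median 0.66). Their summed RPKM ran from 147.8 to 744 in heterozygotes and from 280.1 to 429.4 in P301S+ TREM2+/+ mice, so the heterozygotes held both ends. Heterozygote replicate 3 was the highest of the 8 libraries in 17 of the 19 genes, against 15.1% of all genes, and heterozygote replicate 1 the lowest in 15, against 19.5%. The median was 0.40 without replicate 1 and turned to -0.04 without replicate 3. Cd14, the lipopolysaccharide co-receptor, had the highest difference relative to its error (0.52, unadjusted p = 0.00712) and Cyth4 the lowest (-0.19). Laptm5, a lysosomal membrane protein of leukocytes, passed the interaction test (-1.17 in females, 0.83 in males, limma adjusted p = 0.0394) and was named after its value was seen. Of 9 complement genes, 7 lay above 0, with medians of 0.18 over both sexes, -0.42 in females and 0.80 in males. Heterozygote replicate 3 was the highest library in 7 of the 9 and heterozygote replicate 1 the lowest in 7, and the median was -0.06 without replicate 3 and 0.36 without replicate 1. They ran from -0.21 for Cd59a, an inhibitor of complement lysis, to 0.47 for C1qa, a subunit of the starting complex, while the integrin chain Itgb2 had the largest difference relative to its error (0.31). C1qa was at 62.1, 174, 400.2 and 162 RPKM in heterozygotes and 147, 113, 101 and 113 RPKM in P301S+ TREM2+/+ mice, and the groups overlapped.

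The test of the difference between the sexes called genes mainly in 1 direction. Of the 134 genes, 121 (1.01% of those tested) had a higher genotype difference in females and 13 (0.108%) in males. Females alone gave 450 genes past the limma threshold (3.74%), 365 higher in heterozygotes (3.03%) and 85 lower (0.707%), and 124 genes were in both sets. Males alone gave 0, with 509 at an unadjusted p under 0.05 (4.23%), against 2924 in females (24.3%). Each of these sex-specific fits compared 2 mice with 2.

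The genes with the smallest interaction p were low in the 2 P301S+ TREM2+/+ females and higher in the other 6 libraries. Mgst3, a microsomal glutathione transferase, was at 35, 34.1, 44.2 and 33.1 RPKM in heterozygotes, against 2.27, 1.94, 66.7 and 66.6 RPKM in P301S+ TREM2+/+ mice (interaction -4.31, SE 0.23, limma adjusted p = 0.000434). Snx3, a sorting nexin of endosomes, was at 314, 305, 288 and 334 RPKM in heterozygotes and 75.5, 83.9, 325 and 302 RPKM in P301S+ TREM2+/+ mice (interaction -1.96). Prkci, an atypical protein kinase C, was at 17.8, 27.8, 26.2 and 19.2 RPKM in heterozygotes and 1.97, 2.36, 27 and 31.3 RPKM in P301S+ TREM2+/+ mice (interaction -3.24). The trafficking subunit Trappc6b (-2.09), attractin, Atrn (-1.82), and the methyltransferase Icmt (-2.12) showed the same arrangement, with limma adjusted p of 0.0161, 0.0198 and 0.0198. On the other side, next to Cst7, Clec7a and Ctsz, stood the radial spoke gene Rsph1 (1.89), the transcription factor subunit Taf13 (1.39) and the methionine salvage enzyme Apip (1.27), with adjusted p of 0.0234, 0.0234 and 0.0361.

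The low genes of these females were also low in 1 library outside the comparison. In 120 of the 121 genes both P301S+ TREM2+/+ females lay below 13 other libraries of the series, and in 114 (94.2%) the control replicate 3, a female that stands apart from all other libraries, lay below the same 13. Over all tested genes these shares were 15.7% and 45.8%. Mgst3, for example, was at 0.602 RPKM in control replicate 3 and at 64.0 to 114.9 RPKM in the other 7 knockout and control libraries, Snx3 at 13.6 against 289.4 to 367.7 RPKM, and Prkci at 3.34 against 31.9 to 42.5 RPKM. That control library had 751 small nucleolar RNA reads per 1e+06 reads, against 24.7 and 27.4 in the 2 P301S+ TREM2+/+ females. The part of library quality in the 121 calls was not tested. The count of 134 fell to between 1 and 20 when any 1 library other than heterozygote replicate 3 was left out (107 without that one), and to 0 in a fit over all 16 libraries.

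Most interferon-response genes were highest in a single heterozygote male. Of 25 listed genes 21 were tested, 16 lay above 0, and the median was 0.22 (-0.35 in females and 0.98 in males). Without heterozygote replicate 3 the median was -0.09, and without heterozygote replicate 1, the lowest library in 14 genes, 0.47. Heterozygote replicate 3 was the highest of the 8 in 19 of the 21 genes. The summed RPKM of the list was 428.2 in that library, against 93.9 to 222.4 in the other heterozygotes and 128.8 to 210.8 in P301S+ TREM2+/+ mice. No gene of the list passed in either direction, and 1 of the 21 was higher at an unadjusted limma p under 0.05, against 5.79% of all genes.

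Isg15, a ubiquitin-like protein induced by type I interferon (chromosome 4, 156199424 to 156200818, minus strand, GRCm38), was at 1.64, 1.09, 10.5 and 3.25 RPKM in heterozygotes and 1.14, 1.08, 1.3 and 1.36 RPKM in P301S+ TREM2+/+ mice (difference 0.87, unadjusted p = 0.0407, limma adjusted p = 0.544). The third heterozygote was the highest of the 8 and the groups overlapped at their low ends. Oasl2, of the oligoadenylate synthetase family, was at 0.669, 1.51, 7.06 and 2.32 RPKM in heterozygotes and 1.47, 1.35, 0.691 and 0.805 RPKM in P301S+ TREM2+/+ mice (difference 0.67). Usp18, which removes Isg15 from proteins, was at 0.7, 0.466, 3.52 and 2.3 RPKM in heterozygotes and 0.65, 1.47, 0.445 and 0.312 RPKM in P301S+ TREM2+/+ mice (difference 0.57), and the antiviral Ifit2 differed by 0.29. Usp18 averaged 1.75 RPKM in heterozygotes and 0.718 RPKM in P301S+ TREM2+/+ mice, so it met the expression limit only through the heterozygotes. In heterozygote replicate 3 Ifit3 reached 50.3 RPKM, against 10.2 to 18.4 RPKM in P301S+ TREM2+/+ mice, and the chemokine Cxcl10 of the reactive astrocyte list 19.3 RPKM, against 0.392 to 3.22 RPKM. The lowest members were Ifitm2 (-0.56), Lgals3bp (-0.28), Ifitm3 (-0.05) and Xaf1 (-0.05). Ifitm2 averaged 0.921 RPKM in heterozygotes and 1.71 RPKM in P301S+ TREM2+/+ mice, so it met the expression limit only through the latter. Ifitm2 and Ifitm3 are close copies whose reads the counting could split.

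Promoters of interferon-induced genes are known for the element bound by interferon-activated factors, and matches to its core letters are shown as background. Of the 21 tested genes of the list, 19 were highest in the same library. Of the 7 genes shown, Ifitm2 was not, with 0, 0.987, 1.49 and 1.21 RPKM in heterozygotes and 1.38, 2.18, 1.89 and 1.38 RPKM in P301S+ TREM2+/+ mice. The letters searched were GAAA, any 2 bases and GAAA again, on either strand (TTTC, any 2 bases and TTTC when read on the other), with overlapping matches counted, in the 250 bases before and 50 after each start site in the RefSeq promoter table (GRCm38.p6). Of the 16 tested interferon genes with an entry, 9 (56.2%) held it, against 314 of 9053 tested genes (3.47%). The list was made of genes known to respond to interferon, so this share follows from that choice and does not bear on these libraries. The matches, with 12 bases on each side and capitals for the matched letters, read as follows, 5' to 3' on the gene's strand, in the 7 genes where a match began before the start site.
Ifit1 (chr19:34640773-34640825, plus strand): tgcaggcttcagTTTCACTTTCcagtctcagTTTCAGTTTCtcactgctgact
Ifit3 (chr19:34583361-34583428, plus strand): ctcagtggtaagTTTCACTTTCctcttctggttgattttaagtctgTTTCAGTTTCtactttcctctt
Ifitm2 (chr7:140955986-140956019, minus strand): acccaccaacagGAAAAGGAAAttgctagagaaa
Isg15 (chr4:156200863-156200908, minus strand): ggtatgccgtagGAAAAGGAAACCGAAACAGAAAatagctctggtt
Rsad2 (chr12:26456551-26456584, minus strand): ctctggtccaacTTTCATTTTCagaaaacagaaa
Stat2 (chr10:128270264-128270297, plus strand): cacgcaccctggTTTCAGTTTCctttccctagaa
Trim30a (chr7:104465208-104465241, minus strand): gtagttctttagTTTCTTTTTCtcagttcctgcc
Isg15 held 3 overlapping matches and Ifit1 and Ifit3 held 2 each, while Ifit2 and Oasl2 held none in this window. Of the genes shown, Ifit1 was at 0.506, 0.938, 10.3 and 2.9 RPKM in heterozygotes and 1.31, 1.04, 1.72 and 1.71 RPKM in P301S+ TREM2+/+ mice, and Rsad2 at 1.39, 1.47, 10.6 and 2.87 RPKM in heterozygotes and 1.71, 1.77, 1.67 and 2.63 RPKM in P301S+ TREM2+/+ mice. In both the third heterozygote stood highest.

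Of 11 antigen presentation genes tested, 2 lay above 0 and the median was -0.38, with -0.44 in females, where 1 lay above 0, and 0.25 in males, where 9 did. Heterozygote replicate 1 was the lowest library in 9 of the 11, and without it the median was -0.10. The class II genes were the lowest, with H2-Ab1 at 0.4, 1.47, 2.61 and 2.14 RPKM in heterozygotes and 8.2, 3.89, 2.64 and 1.65 RPKM in P301S+ TREM2+/+ mice (difference -0.87, limma adjusted p = 0.563) and H2-Aa differing by -0.90. The class I gene H2-D1 was the highest (0.66, unadjusted p = 0.0256), at 31.4, 45.8, 154 and 69.4 RPKM in heterozygotes and 19.7, 29.7, 65 and 62.9 RPKM in P301S+ TREM2+/+ mice, again with the top value in heterozygote replicate 3. Genes of this family are close copies whose reads can be split in counting. Of 12 inflammatory cytokine and NF-kB genes 11 lay above 0 (median 0.15, with -0.15 in females and 0.32 in males), from -0.12 for the adhesion molecule Icam1 to 0.75, and the adaptor Myd88 differed by 0.38. Heterozygote replicate 3 was the highest library in 9 of these 12 genes, against 15.1% of all genes. The median was 0.08 without it and 0.28 without heterozygote replicate 1.

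Astrocyte reactivity genes lay mostly higher in heterozygotes over both sexes, with 6 of 18 above 0 in females and 17 in males. Heterozygote replicate 3 was the highest library in 14 of the 18, against 15.1% of all genes. Heterozygote replicate 1 was the lowest in 8, against 19.5% of all genes. Of 18 tested, 16 lay above 0 and the median was 0.25 (-0.17 in females, 0.72 in males; 0.12 without heterozygote replicate 3 and 0.50 without heterozygote replicate 1). Gfap, the filament of reactive astrocytes, was at 4.78, 14.9, 55.5 and 30.7 RPKM in heterozygotes and 22.4, 11.1, 10.8 and 9.96 RPKM in P301S+ TREM2+/+ mice, a difference of 0.54 (SE 0.56, limma adjusted p = 0.77), with its highest and its lowest value both in heterozygotes. Fkbp5, a glucocorticoid-induced chaperone cofactor, had the largest difference relative to its error (0.39, unadjusted p = 0.0167), and Psmb8, an immunoproteasome subunit, the lowest (-0.39). Of 14 general astrocyte genes 9 lay above 0 (median 0.02, and 0.17 without heterozygote replicate 1), with the glutamate transporter Slc1a3 at 0.37 and Aldh1l1 at -0.17.

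Among 10 Trem2 ligands and lipid carriers 7 lay above 0 (median 0.10). The cholesterol exporter Abca1 was at 4.08, 5.31, 11.8 and 10.8 RPKM in heterozygotes and 3.06, 2.85, 8.72 and 5.03 RPKM in P301S+ TREM2+/+ mice (difference 0.60, unadjusted p = 0.00609, limma adjusted p = 0.544). Apoe, the main lipid carrier of the brain and a Trem2 ligand, was at 602, 769, 1204 and 1161 RPKM in heterozygotes and 1142, 991, 1034 and 706 RPKM in P301S+ TREM2+/+ mice (difference -0.09; -0.64 in females, 0.47 in males). Cholesterol synthesis genes lay lower in heterozygotes in 15 of 16 (median -0.27, with -0.12 in females and -0.46 in males). Of the 16, 4 were lower at an unadjusted limma p under 0.05, against 404 of all 12027 genes (3.36%). Cyp51, a demethylase of the sterol pathway, was at 27.1, 27, 18.3 and 24 RPKM in heterozygotes and 39.4, 31.5, 27.7 and 30.8 RPKM in P301S+ TREM2+/+ mice, without overlap (difference -0.41, unadjusted p = 0.0092, limma adjusted p = 0.544), and Sc5d was the highest member at 0.02. Heterozygote replicate 3 was the lowest of the 8 in 13 of the 16 genes, against 9.86% of all genes, and without that library the median was -0.21.

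Of 20 lysosome genes 8 lay above 0 (median -0.02), with 4 above 0 in females (median -0.33) and 17 in males (median 0.26). The lysosome median was 0.09 without heterozygote replicate 1 and -0.16 without heterozygote replicate 3. Psap, the precursor of the saposins, was lowest relative to its error (-0.43), with 1010.0, 867, 896 and 1082 RPKM in heterozygotes against 1583, 1682, 1259 and 837 RPKM in P301S+ TREM2+/+ mice. Its 2 highest values were those of the P301S+ TREM2+/+ females. Respiratory chain genes (7 of 19 above 0, median -0.06) had Ndufv1 (-0.36) and Cox5a (0.26) as the lowest and highest relative to their error. Heat shock and unfolded protein genes (6 of 17 above 0, median -0.07) included Hsph1 at -0.28 and Hspa1b, a close copy of another heat shock gene, at 0.29.

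Medians of the neuronal lists lay near 0, and that of the excitatory neuron markers turned to -0.07 without heterozygote replicate 1. Excitatory neuron markers had a median of 0.10 (12 of 16 above 0; 0.32 in females and -0.13 in males), inhibitory neuron markers 0.05 (8 of 13), synapse genes 0.00 (11 of 21) and tau with its kinases and partners -0.01 (8 of 18). The postsynaptic scaffold Dlg4 differed by 0.44 (unadjusted p = 0.0385) and the vesicle protein Syp by -0.28; the interneuron receptor Htr3a differed by 0.48 and the neuropeptide Cck by -0.30. Cux2 and Foxp2, markers of upper and deep cortical layers, differed by 0.33 and -0.18. Ppp2r2b, a regulatory subunit of the tau phosphatase PP2A, differed by 0.54, and the microtubule protein Map1a by -0.25. Among 19 immediate early genes (11 above 0, median 0.11), Npas4 was at 2.65, 3.62, 5.8 and 3.98 RPKM in heterozygotes and 5.0, 7.88, 5.41 and 7.39 RPKM in P301S+ TREM2+/+ mice (difference -0.58, unadjusted p = 0.0177), and Nr4a2 differed by 0.67.

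Myelin genes had a median of 0.10 (12 of 16 above 0). Mbp, myelin basic protein, was at 185, 216, 224 and 234 RPKM in heterozygotes and 130.4, 119, 163 and 215 RPKM in P301S+ TREM2+/+ mice (difference 0.48, unadjusted p = 0.00609, limma adjusted p = 0.544), and Mal differed by -0.11. Oligodendrocyte precursor genes had a median of 0.01 (7 of 12 above 0), with Olig2 at 0.41 and Cacng4 at -0.35. Among 17 vascular genes (9 above 0, median 0.03), Cdh5, the adhesion molecule of endothelial junctions, was at 2.94, 2.87, 3.13 and 3.06 RPKM in heterozygotes and 0.794, 1.2, 2.67 and 2.28 RPKM in P301S+ TREM2+/+ mice, without overlap (difference 0.61, unadjusted p = 0.00897), while Ly6a differed by -0.61. Of 7 proliferation genes 3 lay above 0 (median -0.04), from -0.32 for Mcm6 to 0.25 for Mcm2.

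Markers of tissue next to the cortex varied between libraries, and their part in the results was not tested. All 9 striatal genes lay below 0 (median -0.60), with summed RPKM of 278.6 to 1477 in heterozygotes and 894.7 to 1679 in P301S+ TREM2+/+ mice. Heterozygote replicate 3 was the lowest library in all 9, against 9.86% of all genes, and without that library the median was -0.16. Rgs9, a signalling regulator of striatal neurons, was at 4.26, 6.36, 1.37 and 7.95 RPKM in heterozygotes and 9.98, 8.84, 7.71 and 9.58 RPKM in P301S+ TREM2+/+ mice, and Penk, proenkephalin, differed by -0.45. All 12 choroid plexus genes lay below 0 as well (median -0.56). Heterozygote replicate 1 was the lowest library in 11 of the 12, against 19.5% of all genes. P301S+ TREM2+/+ replicate 3 was the highest in 8, against 16.3% of all genes. The median was -0.38 without the first of these libraries and -0.37 without the second. Ttr, the transthyretin that choroid plexus secretes, was at 65.8, 376, 582 and 134 RPKM in heterozygotes and 207, 1616, 1739 and 245 RPKM in P301S+ TREM2+/+ mice, and the groups overlapped; Kcne2 differed by -0.69 and Aqp1 by -0.19. Of the listed genes found in the files, before any limit on level, none of 11 striatal and none of 14 choroid plexus genes was at 0 in all 8 libraries. Meninges and fibroblast genes (8 of 11 above 0, median 0.01) ran from -0.34 for Slc13a4 to 0.78 for Dcn, and hippocampal genes (6 of 9 above 0, median 0.13) had C1ql3 (-0.37) and Fibcd1 (0.51) as the lowest and highest relative to their error. The meningeal median was 0.28 without heterozygote replicate 1, and the hippocampal median turned to -0.12 without heterozygote replicate 3. Of the blood list 3 of 10 genes were tested and 4 were at 0 in all 8 libraries, with S100a8 at 0.34 and S100a9 at -0.05, and of the T cell list only Cd4 (-0.53).

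**Figure D5:**
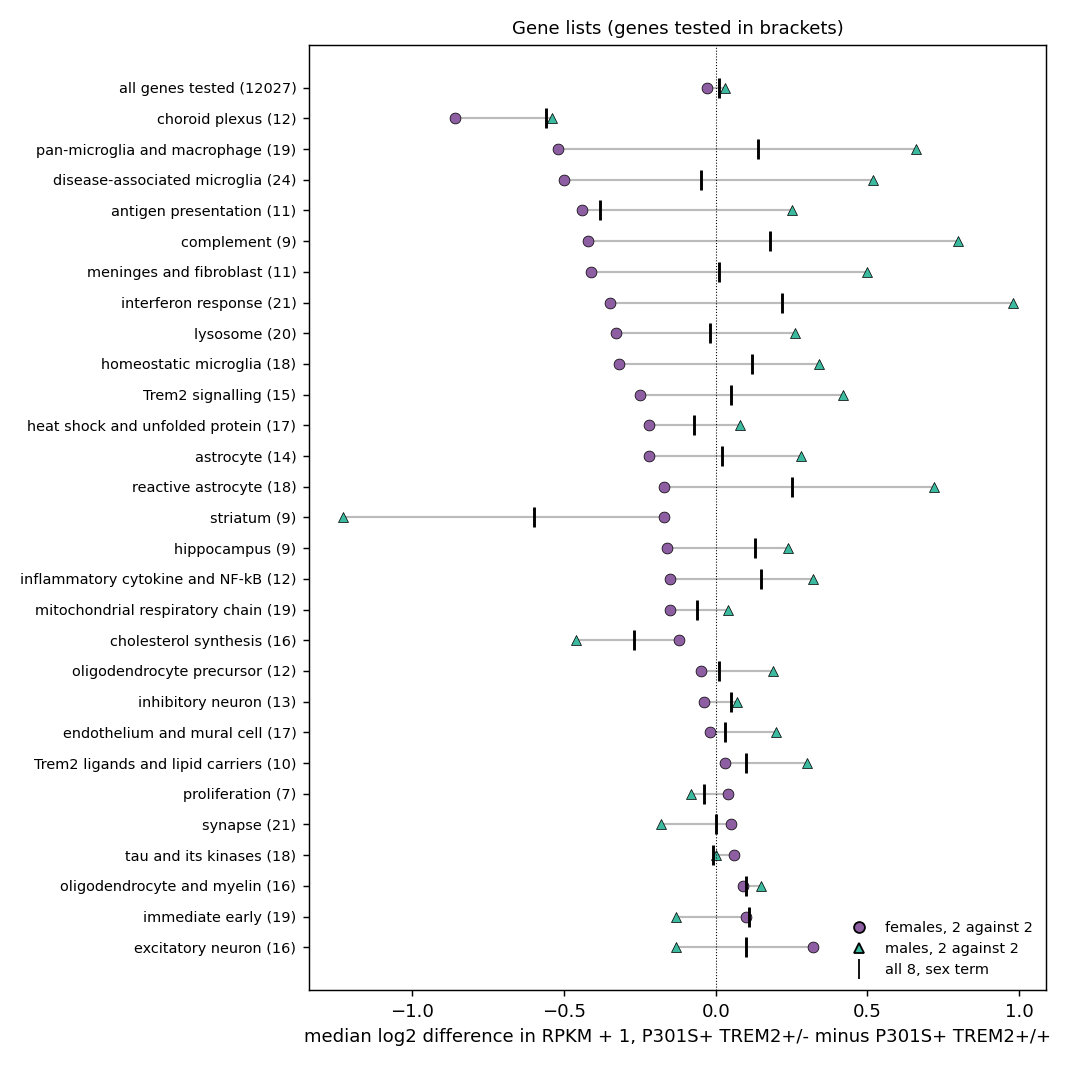
Median log2 difference in RPKM + 1 between heterozygotes and P301S+ TREM2+/+ mice for each gene list with at least 5 tested genes, in females (circles), males (triangles) and all 8 mice (black ticks). All tested genes lie near 0 in both sexes (-0.03 and 0.03), while pan-microglia genes lie at -0.52 in females and 0.66 in males, and striatal and choroid plexus genes below 0 in both.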

How the data were processed

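The deposited tables hold 1 value per gene and library. Headers give only a library name, so the unit is read from the values: the authors deposited RPKM, read counts scaled by gene length and by 1e+06 reads of a library. The authors' libraries were 3' end libraries (Lexogen QuantSeq) of total RNA, per the labels' protocols. STAR, HTSeq, edgeR, limma and the mouse build mm10 are named in the submitters' processing notes, without versions or roles used here. Whole reads were recovered from the RPKM of 100.0% of genes (within 1e-05 reads) and gave the depths; intervals on such reads cover counting error only, as no molecular identifiers are given. Left out was the 1 line of each file with a blank gene name, and 2 symbols occur more than once.

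Genes with a mean of at least 1 RPKM over the 8 libraries were tested with limma 3.58.1 in R 4.3.3 on log2(RPKM + 1), with genotype and sex as terms (5 residual degrees of freedom) or with their interaction (4), and Benjamini-Hochberg adjustment at 0.05. Single values were compared with two-sided exact permutation tests over 70 splits. The 31 gene lists and all members were chosen with earlier results of these data known. Named were all tested genes of the Trem2 signalling and locus lists, the 12 smallest p in each direction without overlap between groups, the genes with the highest and lowest moderated statistic of each list (4 each for disease-associated microglia, homeostatic microglia and interferon response, otherwise 1), the 6 smallest interaction p in each direction, less 1 gene not reported here, and a few single genes chosen after their values were seen, among them Xist, Ddx3y, Apoe, Gfap, C1qa, Ifit1, Ifit3, Rsad2, Cxcl10, Ttr, H2-Aa, Laptm5, Taf8, Lrfn2, Mrps10 and Tomm6. Scaling, test, pseudocount, filter, covariate and left-out libraries were varied; leaving out both P301S+ TREM2+/+ females, leaving out each library from the interaction fit and the ratio of Trem2 to Tyrobp were added after seeing the data. Nothing in the labels gives a preparation batch, so a batch that follows the group order cannot be told apart from genotype. Gene positions are from GENCODE (GRCm38, which is mm10).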

Additional observations from a re-analysis of the deposited data

Results flagged for a closer look

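In 14 of the 250 groups of 4 libraries examined for the 125 named genes, 1 library stood far from the other 3, by Dixon's gap test, which chance passes in about 1 in 20 groups. In heterozygote replicate 1 these were Cidea at 4.34 RPKM (the other 3 of its group 6.16 to 6.34) and Hspa1b at 4.18 RPKM (the other 3 of its group 4.98 to 4.99). In heterozygote replicate 3 these were Xaf1 at 4.44 RPKM (the other 3 of its group 1.07 to 1.25), Ndufv1 at 78.5 RPKM (the other 3 of its group 98.3 to 99.9) and Atrn at 24.5 RPKM (the other 3 of its group 23.6 to 23.6). In heterozygote replicate 4 these were Oard1 at 18.5 RPKM (the other 3 of its group 14.9 to 15.3). In P301S+ TREM2+/+ replicate 1 these were Hcst at 6.51 RPKM (the other 3 of its group 2.68 to 3.12), Med20 at 20.5 RPKM (the other 3 of its group 16.8 to 17), Hddc3 at 16.6 RPKM (the other 3 of its group 27.8 to 29.3), Timp2 at 433 RPKM (the other 3 of its group 266 to 272) and Clec7a at 5.24 RPKM (the other 3 of its group 1.98 to 2.16). In P301S+ TREM2+/+ replicate 3 these were Pik3cd at 4.3 RPKM (the other 3 of its group 8.49 to 9.07). In P301S+ TREM2+/+ replicate 4 these were Trem2 at 14.3 RPKM (the other 3 of its group 29.6 to 34) and Tmem119 at 9.49 RPKM (the other 3 of its group 17 to 17.7). No explanation for these values was tested.

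Of the named genes, 13 passed limma's interaction test of whether the genotype difference differed between the sexes, as did 134 of all 12027 genes (1.11%). All but Itgax were named for their small interaction p, so the values describe that choice. The log2 difference in males minus that in females was positive for Itgax (2.18), Ctsz (2.12), Rsph1 (1.89), Taf13 (1.39), Cst7 (4.17), Apip (1.27) and Clec7a (3.31). It was negative for Mgst3 (-4.31), Trappc6b (-2.09), Snx3 (-1.96), Prkci (-3.24), Atrn (-1.82) and Icmt (-2.12), the genes that were low in both P301S+ TREM2+/+ females.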

How the results depend on the processing

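No paired analysis was possible because the labels number no replicates, so the numbers used here only name samples. The count of genes called between the genotypes was 0 in limma and in every alternative except 1 with a pseudocount of 0.1 (Snord16a), 450 in females alone, and 0 to 1 with each library left out in turn (Snord16a without heterozygote replicate 3, Mir7013 without P301S+ TREM2+/+ replicate 1). The count of 134 genes in the test of the difference between the sexes became 261 with limma-voom on recovered reads, 11 with no filter, 233 with a mean RPKM of at least 5, 0 with all 16 libraries, and 1 to 107 with each library left out. Trem2 passed in females alone (-2.20, limma adjusted p = 0.0201) and ran from -1.58 to -0.81 with each library left out. Among the other named genes, 2378 values kept their direction and side of the threshold, 26 passed it and 156 turned their sign, and the cause was not tested. In males alone, and without both P301S+ TREM2+/+ females, which leaves the same male contrast, the turned differences were Aldh1l1 0.05, Apip 0.23, Atrn -0.20, Cacng4 0.00, Cd74 0.25, Cst7 1.48, Ctsz 0.56, Cux2 -0.02, Cyth4 0.14, Grb2 -0.04, H2-Ab1 0.12, Hcst 0.51, Hsph1 0.08, Icam1 0.23, Icmt -0.09, Ifitm3 0.60, Itgax 0.52, Lat2 0.72, Lgals3bp 0.98, Mcm2 -0.08, Mef2a -0.04, Mgst3 -0.79, Olfml3 0.31, P2ry13 0.39, Prkci -0.36, Psmb8 0.33, Ptpn6 0.49, Rsph1 0.31, Sc5d -0.47, Slc13a4 0.40, Slc2a5 0.19, Snx3 -0.01, Taf13 0.49, Tmem119 0.20, Trappc6b -0.38, Tyrobp 0.79, Usp49 0.22, Vav3 0.22 and Xaf1 0.05. In females alone they were Adam17 -0.06, Blnk -0.03, Cd33 -0.59, Clec7a -1.61, Foxp2 0.07, Inpp5d -0.30, Itgb2 -0.02, Oasl2 -0.23, Penk 0.52, Pik3cd -0.08, S100a9 0.78 and Usp18 -0.35. With array weights they were Blnk -0.06, Cd33 -0.19, Clec7a -0.12, S100a9 0.33 and Vav3 0.00, and with limma-voom Aqp1 0.27, Cd33 -0.02, Ifitm3 0.09, P2ry13 0.00 and Vav3 0.00. A pseudocount of 0.1 gave Clec7a -0.52 and S100a9 0.31, a pseudocount of 5 gave P2ry13 0.00 and Xaf1 0.00, and quantile normalization gave Cd33 -0.03 and Sc5d -0.02. With each library left out, the genes that turned in at least 1 case ran as follows: Adam10 -0.09 to 0.05, Aqp1 -0.51 to 0.15, Blnk -0.06 to 0.26, Cd33 -0.22 to 0.34, Clec7a -0.38 to 0.58, Cst7 -1.21 to 0.10, Cyth4 -0.32 to 0.01, Foxp2 -0.39 to 0.13, Grb2 -0.02 to 0.18, Hcst -0.54 to 0.12, Ifitm3 -0.34 to 0.27, Lat2 -0.46 to 0.19, Lgals3bp -0.82 to 0.22, Olfml3 -0.32 to 0.09, P2ry13 -0.18 to 0.11, Penk -0.86 to 0.25, Pik3cd -0.06 to 0.29, S100a9 -0.61 to 0.24, Sc5d -0.12 to 0.15, Tyrobp -0.75 to 0.04, Usp49 -0.21 to 0.05, Vav3 -0.12 to 0.15 and Xaf1 -0.33 to 0.20. With 2 mice per sex and genotype, the fits by sex rest on few samples, and reads of a few per library, as for Snord16a, limit low genes.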
